A study of Rattus norvegicus with 138 samples.

Results

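Injured tibialis anterior (TA) muscle of rats labelled Run was compared with that of rats labelled NoRun at 3 days post injury (DPI). All were inbred male Lewis rats of about 4 months, and in all of them a volumetric muscle loss (VML) injury had been made in 1 TA with a 6 mm punch. The muscle was either left as it was (NoRepair) or given an autologous minced muscle graft (MMG), cut from the tissue that had just been removed. The running side held 14 muscles, 8 non-repaired and 6 grafted, and the non-running side 10 muscles, 3 non-repaired and 7 grafted, each from a different rat. These are 24 of the 114 muscles of the series that could be mapped and kept. The labels carry the word Run and no more, and the text of the study does not describe the exercise, so neither its kind nor its dose nor its start relative to surgery is known here.

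Whole muscle was sequenced, and expression is given in TPM, the abundance of a transcript per length, scaled to the same total in each library. The depth behind a value is therefore unknown. Of 28 libraries of these muscles, 2 had fewer than 7000 symbols above 1 TPM (4221 and 5712, with ribosomal RNA at 82.0% and 78.5% of TPM) and were dropped. The 26 kept libraries had 10473 to 10744 symbols above 1 TPM, and every muscle remained. Ribosomal RNA was at most 1.05% of TPM in the non-running muscles and had a median of 0.187% in the running muscles, of which 1, rat 002, reached 15.1%. Neither measure differed between the sides beyond the spread of muscles (mean 10602 ± 61.9 (SD, n = 14) against 10630 ± 103.7 (SD, n = 10) symbols, p = 0.420, and p = 0.876 for ribosomal RNA, two-sided permutation tests).

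At this stage a VML wound is dominated by phagocytes that clear dead fibers, while satellite cells, the stem cells of muscle, proliferate and enter differentiation and fibroblasts begin to lay down matrix. Interferon-stimulated genes, chemokines and iron-handling genes mark the activity of immune cells, and sarcomere and glycolytic genes mark the fibers that remain. A bout of exercise is known to act on healthy muscle through immediate-early transcription factors, stress proteins and metabolic regulators. Injured levels were far from those of control TA. Cd163, a scavenger receptor of macrophages, was at 1.18 ± 0.311 TPM (SD, n = 4 muscles of 2 control rats, labelled Sham, from another numbered series) in control TA and had medians of 149 TPM in running and 112 TPM in non-running injured muscle. Myh4, the fast myosin of glycolytic fibers, was at 23565 ± 2150 TPM (SD, n = 4) in control TA and had medians of 1861 TPM and 2728 TPM.

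No gene passed the test between the running and the non-running side. Of 10826 genes tested with limma with repair as covariate, 0 (0%) were called at an adjusted p under 0.05 and a log2 fold change beyond 1, and 0 (0%) at the adjusted p alone, for which the smallest value was 0.288. At an unadjusted p under 0.05 there were 1316 genes (12.2%), 696 higher (6.43%) and 620 lower (5.73%) in running rats. Leaving out 1 muscle at a time gave 992 to 2107 such genes, with 2107 without non-running rat 009. With limma's array weights, which weigh muscles by how well they fit their group, 15 genes were called, of which Isg15, Mx1 and Nppa were lower and S100a8 higher and 11 were microRNA symbols, and with the range of rat numbers added 6 were called. At the adjusted p alone there were 1048 genes with array weights and 14 with size factors. Fold changes were small, with a median of 0.01 and a median absolute size of 0.09 on the log2(TPM + 1) scale. The absolute size was under 0.24 for 90% of genes and under 0.57 for 99%. The 95% confidence interval lay within 1 of zero on the log2 scale for 10611 genes (98.0%) and within 0.5 for 9493 (87.7%), so a difference of more than 2-fold lay outside the interval for most genes and was left undecided for 215. Fold changes on this scale understate those of genes with low TPM. In no gene did the muscles of both sides separate without overlap, which held for 0 of 10826 (0%). In whole muscle, a different number of cells of a type and a different amount of RNA per cell cannot be told apart.

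The gene of smallest p was Gltscr2, now named Nop53, a nucleolar protein of ribosome assembly, which had its lowest, median and highest values at 115, 138 and 159.9 TPM in running and 147, 164 and 182 TPM in non-running muscle. Of the running muscles, 13 were below every non-running one and rat 005 alone, at 159.9 TPM, lay among them. The difference was -0.26 on the log2 scale (95% CI -0.38 to -0.15, p = 5.68e-05, limma adjusted p = 0.288). Psmb5, a catalytic subunit of the proteasome, ran from 198 to 256 TPM (median 221) and from 217 to 326 TPM (median 276), a difference of -0.29 (-0.43 to -0.14). Mlf2 had medians of 161 and 189 TPM, a difference of -0.19 (-0.28 to -0.10). RT1-CE16, a class I major histocompatibility gene, had medians of 14.1 and 19.4 TPM, a difference of -0.40 (-0.59 to -0.21). Close paralogs may share its reads, which makes the value uncertain. Prima1, which anchors acetylcholinesterase in the membrane, ran from 0.21 to 1.69 TPM (median 0.86) and from 0.94 to 5.54 TPM (median 1.92), a difference of -0.86 (-1.24 to -0.48). Arrdc2, an arrestin-domain protein, had medians of 12.3 and 19.7 TPM, a difference of -0.64 (-0.94 to -0.34), and LOC688090 medians of 7.64 and 13.7 TPM, a difference of -0.67 (-0.97 to -0.38). All 7 share the adjusted p of 0.288, and for each the muscles of the sides overlapped.

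Also among the lower 8 was Mir25, the symbol of a microRNA hairpin that lies in an intron of Mcm7, a subunit of the replicative helicase. It ran from 10.9 to 34.4 TPM (median 17.1) in running and from 19.3 to 41.4 TPM (median 33.0) in non-running muscle, a difference of -0.74 (-1.08 to -0.39, adjusted p = 0.288). Mcm7 itself had medians of 44.0 and 44.3 TPM and a difference of 0.03 (-0.14 to 0.20). The next microRNA symbol of interest was Mirlet7i, at -0.94 (-1.54 to -0.35) with medians of 11.8 and 27.7 TPM, which was chosen after its values were seen because leaving out non-running rat 100 brought it to an adjusted p of 0.0493. The mature arms of both hairpins are shown with the seed, bases 2 to 8, in capitals, from RefSeq on GRCr8, so that the families they belong to can be read off.
rno-miR-25-3p, chr12:22156652-22156673 (-): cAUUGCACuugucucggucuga
rno-miR-25-5p, chr12:22156690-22156711 (-): aGGCGGAGacacgggcaauugc
rno-let-7i-5p, chr7:60527935-60527956 (-): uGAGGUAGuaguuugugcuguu
rno-let-7i-3p, chr7:60527879-60527900 (-): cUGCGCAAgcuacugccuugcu
The TPM of a hairpin symbol comes from libraries of long RNA and is no level of these mature arms. Symbols of this kind were also the noisiest. The median half-width of the 95% interval was 0.81 on the log2 scale over 146 microRNA symbols and 0.18 over the other genes, and 8 of the 10 genes with a difference beyond 1 were microRNA symbols. Mir6315 was the farthest, at 1.36 (0.18 to 2.55), with a median of 5.62 TPM in running muscle and 0 TPM in non-running muscle.

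On the higher side the smallest p belonged to Sppl2a, a protease that cuts within membranes, with 19.3, 23.3 and 27.6 TPM as lowest, median and highest in running and 12.1, 18.3 and 22.6 TPM in non-running muscle, a difference of 0.35 (0.18 to 0.51). Dck, which phosphorylates deoxycytidine in nucleotide salvage, had medians of 13.3 and 10.4 TPM, a difference of 0.36 (0.18 to 0.55). Bc1, a short non-coding RNA of rodents, ran from 324 to 1032 TPM (median 541) and from 213 to 715 TPM (median 289), a difference of 0.89 (0.43 to 1.35). Bc1 also differed between the ranges of rat numbers, at 0.96 for later minus earlier rats (limma adjusted p = 3.06e-05). With the range as covariate the difference of Bc1 between the sides was 0.67, and in the earlier rats alone it was 0.72 (0.45 to 0.99). The others were the translation initiation factor Eif1a at 0.31, the general transcription factor subunit Gtf2a1 at 0.41, Nabp1, which binds single-stranded DNA, at 0.59, the sphingomyelin synthase Sgms2 at 0.49 and the lipid transfer protein Osbpl8 at 0.42. None of the 8 passed the adjusted test (adjusted p = 0.288 for each), and each overlapped between the sides.

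Interferon-stimulated genes, which are switched on through interferon receptors, had mostly lower values in running muscle, and none passed the test. Of 27 such genes, all tested, 0 were called, 26 had a value below zero and the median was -0.30, against 0.01 over all genes. At an unadjusted p under 0.05 there were 13 lower (48.1%) and 0 higher, where 5.73% of all genes were lower. The 13 were Mx1, Isg15, Rsad2, Mx2, Irf7, Oas1a, Ifit3, Ifi44, Gbp5, Gbp2, Tap1, Oas1b and Irgm. Irf7, the factor that amplifies the response, had lowest, median and highest values of 16.1, 25.7 and 115 TPM in running and 17.9, 56.7 and 93.5 TPM in non-running muscle, against 3.37 ± 0.793 TPM (SD, n = 4) in control TA. The highest single value of Irf7 was that of running rat 030, at 115 TPM, and non-running rat 018 was at 17.9 TPM, so the ranges cover one another. The difference was -0.66 (-1.28 to -0.03). Isg15, a ubiquitin-like modifier, had medians of 22.4 and 54.8 TPM with highest values of 135 and 118 TPM, a difference of -0.85 (-1.65 to -0.05), and of -0.50 (-1.52 to 0.52) in rats 001 to 032 alone. Mx1, an antiviral GTPase, was at -0.89 (-1.73 to -0.05), and Rsad2, the antiviral enzyme viperin, at -0.79 (-1.43 to -0.15). The guanylate-binding proteins Gbp2, with medians of 31.2 and 41.7 TPM, and Gbp5, with 4.99 and 7.03 TPM, were at -0.37 (-0.63 to -0.10) and -0.46 (-0.78 to -0.15). Tap1, which carries peptides to class I molecules, was at -0.30 (-0.50 to -0.10). The same list had a median of -0.12 in the non-repaired and -0.47 in the grafted arm, and of -0.23 in rats 001 to 032 alone, where the 95% intervals of Isg15, Mx1, Rsad2, Irf7, Gbp2, Gbp5 and Tap1 took in zero.

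A short form of the interferon-stimulated response element was searched in the 250 bases before the start of each gene in RefSeq (GRCr8). The pattern was GAAA, then any 2 bases, then GAAA, on either strand, with overlaps allowed. Of the 27 genes 20 had a promoter entry under their symbol, and 13 of those 20 (65%) held the pattern, against 1140 of 33469 promoters (3.41%). Stretches of 60 bases around it are shown for 5 of the genes described above, 5′ to 3′ on the strand of the gene, with the pattern in capitals. A match describes letters and is not a measured binding site.
Irf7, chr1:205800058-205800117 (-): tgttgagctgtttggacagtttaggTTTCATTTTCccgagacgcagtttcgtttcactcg
Ifit3, chr1:241527257-241527316 (+): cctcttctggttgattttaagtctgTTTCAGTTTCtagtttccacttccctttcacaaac
Gbp2, chr2:234005667-234005726 (+): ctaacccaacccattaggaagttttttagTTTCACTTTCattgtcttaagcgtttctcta
Rsad2, chr6:48788233-48788292 (-): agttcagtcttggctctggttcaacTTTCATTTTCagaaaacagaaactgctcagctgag
Tap1, chr20:4668630-4668689 (-): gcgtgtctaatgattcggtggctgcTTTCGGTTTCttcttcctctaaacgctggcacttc

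**Figure D1:**
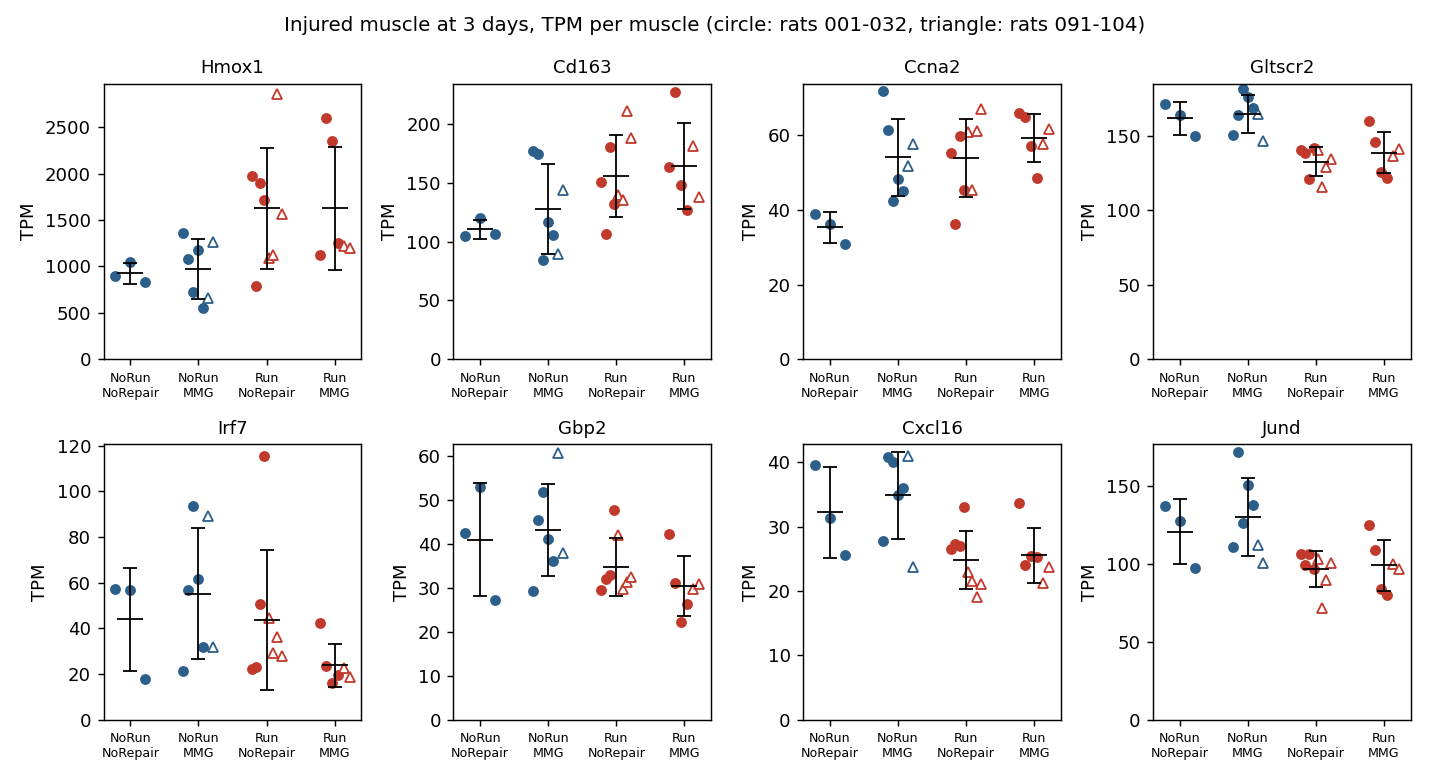
TPM (vertical axis, from 0) of 8 genes in each injured muscle at 3 days, by running and repair (horizontal axis), with circles for rats 001 to 032, open triangles for rats 091 and above, and black bars for mean ± SD of the group. Hmox1, Cd163 and Ccna2 had higher medians in running muscle and Gltscr2, Irf7, Gbp2, Cxcl16 and Jund lower ones, and in each panel muscles of both sides overlapped.

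None of the 26 tested CC and CXC chemokines was called, and values went both ways. Their median was 0.15, with 6 (23.1%) higher and 2 (7.69%) lower at an unadjusted p under 0.05, beside 6.43% and 5.73% of all genes. Cxcl2 ran from 0.95 to 55.2 TPM (median 6.16) in running and from 0.91 to 10.7 TPM (median 2.9) in non-running muscle, a difference of 1.13 (0.03 to 2.23). Running rats 101, 025 and 006, at 55.2, 49.0 and 27.2 TPM, were above all other muscles. Cxcl3 was at 1.03 (0.13 to 1.93), Cxcl1 at 0.58 (0.12 to 1.04), Cxcl6 at 0.92 and Ccl3 at 0.60. Ccl2, which draws monocytes, had medians of 257 and 139 TPM and a difference of 0.54 (-0.03 to 1.12), and of 0.65 (0.05 to 1.26) in rats 001 to 032 alone. Cxcl16, a membrane-bound chemokine, went the other way, with medians of 24.6 and 35.5 TPM and a difference of -0.40 (-0.62 to -0.18, p = 0.000923, limma adjusted p = 0.288). So did Cxcl11, an interferon-inducible ligand, at -0.63 (-1.10 to -0.16).

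Neutrophil genes had a median of 0.21 over 11 tested and 0 called. At an unadjusted p under 0.05, 2 (18.2%) were higher, where 6.43% of all genes were higher. S100a8, a calcium-binding protein abundant in neutrophils, had lowest, median and highest values of 34.1, 93.7 and 214 TPM in running and 15.5, 47.2 and 168 TPM in non-running muscle, a difference of 0.79 (0.03 to 1.56). Its partner S100a9 was at 0.51 (-0.18 to 1.19), and Csf3r, the receptor for granulocyte colony-stimulating factor, at 0.16 (-0.14 to 0.45).

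Macrophage genes as a list had a median of -0.02 over 23 genes, with 11 above zero, 12 below it, down to -0.26, and 0 called. At an unadjusted p under 0.05, 4 (17.4%) were higher and 0 lower, where 6.43% of all genes were higher. The sum of 7 macrophage markers, Cd163, Mrc1 and Cd68 among them, had medians of 1484 TPM in running and 1554 TPM in non-running muscle. Cd163 ran from 106 to 227 TPM in running and from 84.3 to 177 TPM in non-running muscle, a difference of 0.42 (0.14 to 0.70), and Mrc1, the mannose receptor, was at 0.27 (0.06 to 0.49). Cd68, a lysosomal marker of macrophages, was at 0.11 (-0.17 to 0.38). In rats 001 to 032 alone Cd68 was at 0.34 (0.09 to 0.60) and the list had a median of 0.10. Hmox1, which breaks down heme and is abundant in macrophages that take up red cells or muscle debris, had lowest, median and highest values of 784, 1407 and 2854 TPM in running and 554, 973 and 1361 TPM in non-running muscle, against 2.70 ± 0.968 TPM (SD, n = 4) in control TA. The difference was 0.72 (0.29 to 1.15, p = 0.00188, adjusted p = 0.288), and 7 running muscles were above every non-running one. Of 24 tested genes of iron handling and oxidative stress, 7 (29.2%) were higher at an unadjusted p under 0.05, 0 were lower, 0 were called and the median was 0.13. Besides Hmox1 they were the ferritins Fth1 at 0.30 and Ftl1 at 0.36, the metallothioneins Mt1 at 0.33 and Mt2A at 0.44, Gclc, which makes the precursor of glutathione, at 0.34 (0.14 to 0.54), and Prdx1 at 0.25. Ferritins have processed pseudogenes, so their reads may be shared. Erythroid markers (Hba1, Hba2, Hbb and Alas2), the sign of blood in the sample, ran from 1669 to 70613 TPM (median 10135) in running and from 3792 to 88174 TPM (median 7666) in non-running muscle as a sum over 4 genes. The erythroid and platelet list had a median difference of 0.16, with 8 of 10 genes above zero and 0 called, and one of -0.81 in the non-repaired and 0.93 in the grafted arm, and its part in these values was not tested.

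Among cytokines, 3 of 16 (18.8%) were higher at an unadjusted p under 0.05, where 6.43% of all genes were higher, and 0 were called. Il18 had medians of 62.1 and 48.1 TPM and a difference of 0.39 (0.15 to 0.63), while Il1b was at 0.32 (-0.14 to 0.78) and Il6 at 0.18 (-0.62 to 0.98). Lymphocyte genes had a median of -0.01. Of them, Cd8a, which marks cytotoxic T cells and also some rat macrophages, had medians of 134 and 91.9 TPM, a difference of 0.45 (0.17 to 0.74). Defining T cell markers were low, at a sum over 4 genes of 6.97 to 26.8 TPM in running and 8.38 to 17.1 TPM in non-running muscle. Lyve1, which marks lymphatic endothelium and resident macrophages, was at 0.46 (0.18 to 0.73), with medians of 85.5 and 58.6 TPM. Complement genes had a median of -0.03 and endothelial genes of 0.05.

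Cell cycle genes were nearly all on the high side by a small amount. Of 35 tested, 34 had a value above zero, 12 (34.3%) were higher and 0 lower at an unadjusted p under 0.05, 0 were called, and the median was 0.21 with a range of -0.12 to 0.33. The background of higher genes at that p was 6.43%. Ccna2, the cyclin of S and G2 phase, had lowest, median and highest values of 36.2, 58.8 and 67.0 TPM in running and 30.9, 46.7 and 71.9 TPM in non-running muscle, a difference of 0.32 (0.10 to 0.54). The highest Ccna2 value of all was thus that of a non-running muscle. Mki67, the proliferation marker, was at 0.33 (0.05 to 0.62), Cenpa, the centromere histone, at 0.31 (0.10 to 0.52), and Pcna, the clamp of replication, at 0.22 (0.05 to 0.39). The list had a median of 0.40 in the non-repaired and 0.08 in the grafted arm. For all 35 genes the 95% interval lay within 1 of zero.

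Fiber genes had mostly lower values in running muscle, and none passed. Adult fast sarcomere genes had a median of -0.28 over 20 genes with 2 lower at an unadjusted p under 0.05, developmental sarcomere genes one of -0.22 over 17 with 0, and glycolytic genes one of -0.14 over 25 with 0. Adult slow sarcomere genes had a median of 0.14 over 16, with 1 higher. In rats 001 to 032 alone the slow median was -0.11, so its direction turned. The fast median was -0.53 there, the developmental one -0.30 and the glycolytic one -0.28. Ckm, the muscle creatine kinase, ran from 3173 to 11370 TPM (median 4739) in running and from 3028 to 8179 TPM (median 6711) in non-running muscle, a difference of -0.36 (-0.76 to 0.05), and of -0.55 (-0.92 to -0.17) in rats 001 to 032 alone. Pvalb, the calcium buffer of fast fibers, was at -0.63 (-1.16 to -0.10), and Myh3, the embryonic myosin of regenerating fibers, at -0.51 (-1.10 to 0.09). Satellite cell and myogenic genes had a median of -0.08 over 18 genes, with 0 at an unadjusted p under 0.05 in either direction, and of -0.22 in the non-repaired and 0.01 in the grafted arm. Pax7, the satellite cell factor, had medians of 3.01 and 2.94 TPM and a difference of -0.09 (-0.42 to 0.24), Myod1, which commits cells to muscle, one of -0.29 (-0.59 to 0.00), and Myog, which drives differentiation, one of -0.35 (-0.75 to 0.05). Mstn, the inhibitor of muscle growth, had medians of 3.06 and 5.83 TPM, a difference of -0.54 (-1.004 to -0.071). The summed fiber markers ran from 24526 to 70707 TPM (median 32272) in running and from 19491 to 48828 TPM (median 42131) in non-running muscle, so fiber genes were present in every muscle at levels that varied within each side.

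Genes known to answer exercise in healthy muscle did not separate the sides. The immediate-early and exercise list had a median of -0.01 over 37 genes and 0 called. At an unadjusted p under 0.05, 1 (2.70%) was higher and 4 (10.8%) were lower, beside 6.43% and 5.73% of all genes. Ppargc1a, the regulator of mitochondrial biogenesis, had medians of 2.43 and 3.12 TPM and a difference of 0.00 (-0.40 to 0.39), and of -0.32 (-0.71 to 0.08) in rats 001 to 032 alone. Nr4a3 was at -0.01 (-0.28 to 0.26) and Fos at 0.41 (-0.15 to 0.97). Those with an unadjusted p under 0.05 on the lower side were Jund, Jun, Egr3 and the mitochondrial carrier Slc25a25. Jund, an AP-1 subunit, ran from 71.5 to 125 TPM (median 99.7) and from 97.3 to 172 TPM (median 127), a difference of -0.35 (-0.55 to -0.16, p = 0.00105, adjusted p = 0.288). Slc25a25 was at -0.45 (-0.73 to -0.18). Oxidative phosphorylation genes had a median of -0.11 over 37, with 5 (13.5%) lower, and the heat shock list one of 0.02 over 23, with 0 in either direction. Among stress proteins, Ankrd2, an ankyrin repeat protein that answers stretch, was at 0.48 (0.09 to 0.87), and at 0.23 (-0.06 to 0.52) in rats 001 to 032 alone. Pdk4, which spares glucose, was at 0.19 (-0.28 to 0.66), and the atrophy ligases Fbxo32 and Trim63 at -0.04 (-0.54 to 0.47) and -0.36 (-0.81 to 0.08).

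Clock genes had 3 of 15 (20.0%) lower at an unadjusted p under 0.05, where 5.73% of all genes were lower. Per1 was at -0.48 (-0.89 to -0.07) with medians of 13.6 and 17.6 TPM, and Tef, a factor driven by the clock, at -0.38 (-0.69 to -0.07). In rats 001 to 032 alone Tef was at -0.65 (-0.92 to -0.38), and Dbp, a related factor, at -0.50 (-0.81 to -0.18) beside -0.23 (-0.55 to 0.09) in all 24 muscles. Tef differed between the ranges of rat numbers, at 0.52 (limma adjusted p = 0.0038). The hour at which muscles were taken is not given by the labels. Glucocorticoid targets, of which Per1 is one, had 3 higher and 3 lower of 20.

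Matrix genes showed small differences. Fibrillar collagens had a median of 0.09 over 9 genes with 0 in either direction at an unadjusted p under 0.05. Col1a1 ran from 1430 to 4677 TPM (median 2111) in running and from 957 to 4624 TPM (median 2095) in non-running muscle, a difference of 0.17 (-0.31 to 0.65), against 17.6 ± 4.40 TPM (SD, n = 4) in control TA. Col3a1 was at 0.10 (-0.21 to 0.40) and Tgfb1, the growth factor tied to fibrosis, at 0.07 (-0.15 to 0.29). Of 34 other matrix and matricellular genes, 3 (8.82%) were higher and 1 (2.94%) was lower at an unadjusted p under 0.05, beside 6.43% and 5.73% of all genes. Thbs1, a matricellular protein that activates TGF-β, was at 0.46 (0.15 to 0.78), and Loxl4, which crosslinks collagen, at 0.49 (0.16 to 0.82). Mmp11, a matrix protease, was at -0.39 (-0.66 to -0.13). Scx, the factor of tendon cells, was at -0.41 (-0.76 to -0.06), and at -0.62 (-1.005 to -0.23) in rats 001 to 032 alone. The tendon and cartilage list had a median of -0.32 over 10 genes, with 1 in each direction. Its direction was not stable, since the median was 0.04 in rats 001 to 032 alone, 0.26 in the non-repaired and -0.56 in the grafted arm, and -0.58 between the ranges of rat numbers.

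Over all 38 lists 0 genes were called, and the median of 32 lists lay within 0.2 of zero on the log2 scale. Of 4 keratinocyte markers 3 were below 1 TPM in every muscle. The sum of 4 adipocyte markers ran from 0.77 to 17.2 TPM (median 1.46) in running and from 1.10 to 8.28 TPM (median 4.90) in non-running muscle. The sum of the tendon markers Scx and Tnmd had medians of 94.5 and 108 TPM.

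**Figure D2:**
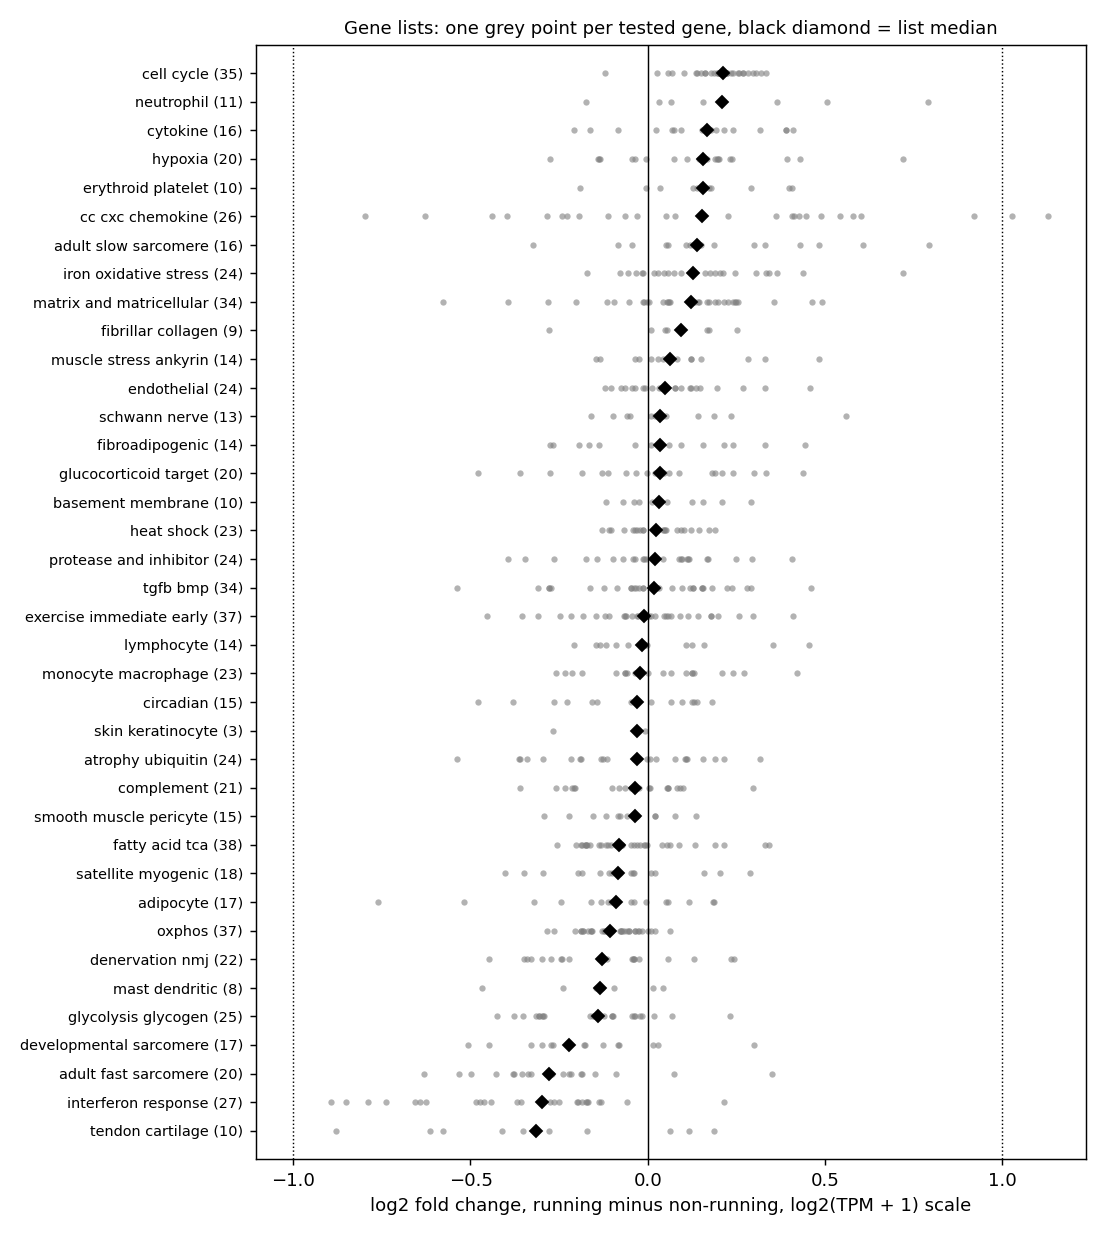
Log2 fold change of running minus non-running muscle on the log2(TPM + 1) scale (horizontal axis) for each tested gene (grey points) of 38 gene lists (rows, number tested in brackets), with list medians as black diamonds and dotted lines at the threshold of 1. Medians lay between -0.32 (tendon and cartilage, at 0.04 in rats 001 to 032 alone) and 0.21 (cell cycle), and beyond 1 lay Cxcl2 and Cxcl3 alone.

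Within the repair arms no gene was called either. In the non-repaired arm, with 8 running and 3 non-running muscles, 0 of 10826 genes passed (0%) and 1418 (13.1%) had an unadjusted p under 0.05, of which 1055 were higher (9.75%) and 363 lower (3.35%). With 1 muscle left out the 1418 became 728 to 1957, with 728 without non-running rat 018. In the grafted arm, with 6 and 7 muscles, 0 passed (0%) and 448 (4.14%) had an unadjusted p under 0.05, 89 higher (0.822%) and 359 lower (3.32%), and this count was 745 without non-running rat 009, 273 without rat 014, 238 without running rat 025 and 297 without rat 026. The difference between the arms was tested as an interaction, which called 0 genes (0%), with 354 (3.27%) at an unadjusted p under 0.05. That count ran from 137 to 921 with 1 muscle left out. It was 572, 921 and 137 without non-running rats 010, 017 and 018, and 653, 182 and 576 without running rats 002, 026 and 098. Fibrillar collagens had a median of 0.39 in the non-repaired and -0.12 in the grafted arm, and Irf7 was at -0.05 and -1.07, but no gene was past the interaction test. The count in the non-repaired arm was 2 without non-running rat 010 and 1 without rat 009, 021 or 098, and that of the interaction was 1 without rat 010. Hmox1 was at 0.72 in both arms.

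The rats fall into numbers 001 to 032, with 8 running and 8 non-running, and 091 and above, with 6 running and 2 non-running, both grafted. What sets these ranges apart is not in the labels. With the range as a second term, 2232 of 10826 genes (20.6%) differed between the ranges at an adjusted p under 0.05 in limma, and 40 (0.369%) also by a log2 fold change beyond 1, 14 higher and 26 lower in the later rats. Fast sarcomere genes had a median of 0.64 and neutrophil genes of -0.46 in that contrast. The running effect was 0 called genes with this term and also in rats 001 to 032 alone. There the difference of Hmox1 was 0.80, of Gltscr2 -0.27, of Jund -0.37 and of Irf7 -0.49. In the later rats, with 2 non-running muscles, no separate test was made.

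**Figure D3:**
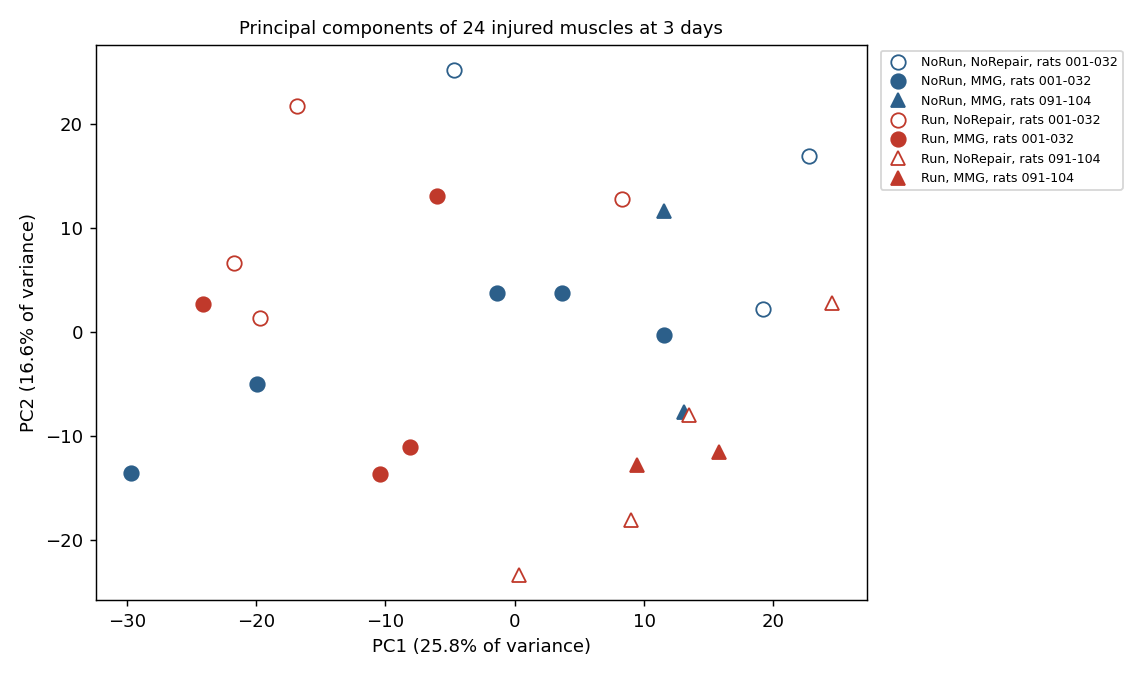
First and second principal component of log2(TPM + 1) over the tested genes for the 24 injured muscles (axes in component units, with 25.8% and 16.6% of variance), colored by running, filled for grafted muscle and shaped by range of rat numbers. Running and non-running muscles intermingle, and all muscles of rats 091 and above lie above zero on the horizontal axis.

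Other days were set beside this one in a single fit of all 76 injured muscles. The running side held 14, 8, 8 and 4 muscles on days 3, 7, 14 and 28, and the non-running side 10, 16, 8 and 8. In that fit, whose spread comes from all days, 59 genes of 11257 (0.524%) had an adjusted p under 0.05 at 3 DPI, and 1 (0.00888%) was called, Nppa, the atrial natriuretic peptide. It ran from 0.78 to 6.24 TPM (median 1.85) in running and from 0.67 to 8.93 TPM (median 6.13) in non-running muscle, a difference of -1.03 (adjusted p = 0.00481) and, in the fit of the 24 muscles alone, of -0.998 (-1.60 to -0.39, adjusted p = 0.288). In rats 001 to 032 alone Nppa was at -0.75 (-1.52 to 0.02), and with the range of rat numbers as covariate at -0.85. At 7 and 14 DPI 0 genes were called (0%), with 1588 (14.1%) and 512 (4.55%) at an unadjusted p under 0.05. The contrast of the effect at 3 DPI with that at 7 DPI called 0 genes (0%) and had 559 (4.97%) at an unadjusted p under 0.05. At 7 DPI, 8 of the 16 non-running muscles came from rats with higher numbers than any running rat of that day. With rats 001 to 032 alone at 3 and 7 DPI, an alternative chosen after seeing the data, the count at 7 DPI was 368 with 8 muscles on each side, and 0 genes were called.

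At 7 DPI the interferon list had a median of -0.28, cell cycle genes of 0.20 and iron and oxidative stress genes of 0.13, beside -0.30, 0.21 and 0.13 at 3 DPI. In rats 001 to 032 alone these medians at 7 DPI were -0.34, -0.02 and 0.01, so the cell cycle median changed sign. Mx1 was at -0.90 and Ifit3 at -0.89 at 7 DPI, and Jund was at 0.16, and in rats 001 to 032 alone at 0.00 (-0.32 to 0.32), with Mx1 at -0.99 (-2.09 to 0.11) and Ifit3 at -0.83 (-1.71 to 0.04). The muscles of different days come from different rats. At 28 DPI every running rat that could be mapped had a higher number than each non-running rat, so running and rat number cannot be told apart there. With these 4 running muscles, 136 genes (1.21%) had an adjusted p under 0.05 and 31 (0.275%) were called, all lower. The count was 8 with all libraries kept and 54 with a pseudocount of 0.1 TPM. Among the 31 were Sln, which slows the calcium pump, at -1.67 (adjusted p = 0.00356) and Actc1, the cardiac actin of immature fibers, at -1.52.

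**Figure D4:**
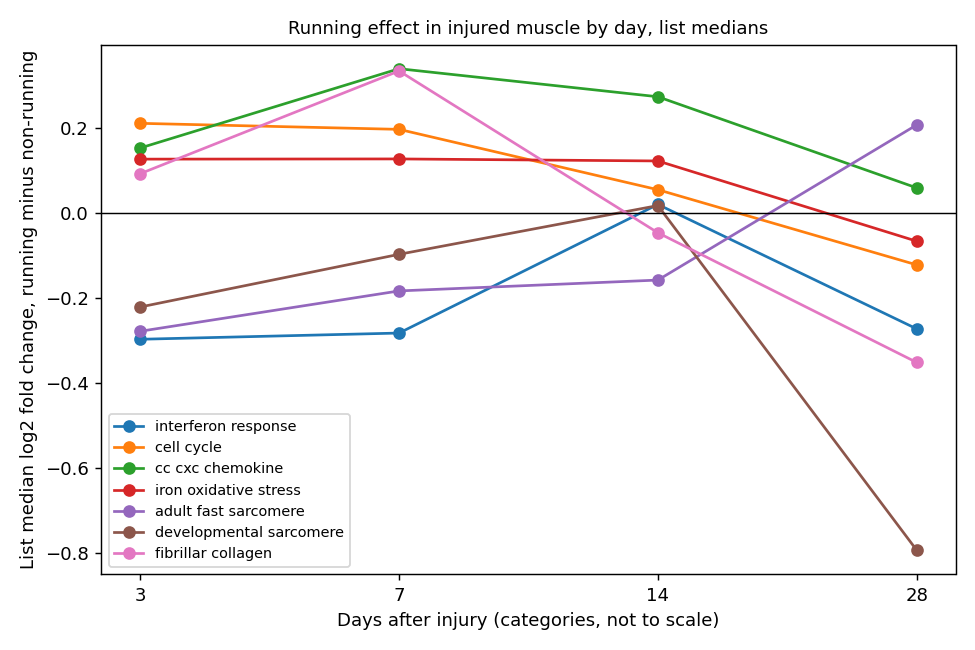
Median log2 fold change of 7 gene lists, running minus non-running injured muscle (vertical axis), at 3, 7, 14 and 28 days (horizontal axis, drawn as categories), from the fit of 24 muscles at 3 days and of 76 muscles at the later days. The interferon list was at -0.30, -0.28 (-0.34 in rats 001 to 032 alone), 0.02 and -0.27, and developmental sarcomere genes fell farthest from zero at 28 days, at -0.79. At 28 days every running rat had a higher number than each non-running rat.

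The uninjured leg was available in 8 of the rats, 4 running (001, 002, 005 and 006) and 4 non-running (010, 013, 014 and 017), with 2 grafted on the injured side in each. Every running rat here had a lower number than each non-running rat, so running and rat number cannot be told apart. In contralateral TA 11 of 9872 genes were called (0.111%), 10 higher and 1 lower in running rats. Gadd45a, a growth arrest protein known from denervated and immobilized muscle, was at 200.4, 169.8, 159.0 and 94.2 TPM in running and 41.6, 55.4, 43.4 and 63.1 TPM in non-running rats. The groups did not overlap, and the difference was 1.56 (1.10 to 2.03, limma adjusted p = 0.0458). Genes called here were picked by this difference, and the share of all genes without overlap was not counted in contralateral TA. Chrnd, a subunit of the acetylcholine receptor, was at 24.6, 11.1, 17.0 and 16.6 TPM against 6.25, 6.86, 5.24 and 5.38 TPM, a difference of 1.36 (0.89 to 1.83). Musk, the kinase that gathers those receptors at the synapse, was at 3.25, 2.93, 5.40 and 2.50 TPM against 0.89, 0.61, 1.11 and 0.66 TPM, a difference of 1.28 (0.85 to 1.72). Both share that adjusted p. Control TA had 21.3 ± 7.78 TPM of Gadd45a, 3.5 ± 0.139 TPM of Chrnd and 0.320 ± 0.202 TPM of Musk (SD, n = 4), means below each of these contralateral values. The other genes called higher included Cryab, a small heat shock protein, Slco4a1, Ttc9 and Tuba4a, and Sec14l5 was the one called lower, at -1.05. For Tuba4a, an alpha-tubulin, and Sec14l5 the control stood otherwise. Tuba4a was at 949.9, 914, 720 and 1097 TPM in running and 462, 413, 370 and 595 TPM in non-running rats, and control TA, at 755 ± 198 TPM (SD, n = 4), had a mean above every non-running value and within the running range. Sec14l5 ran from 5.16 to 8.08 TPM in running and from 12.3 to 17.4 TPM in non-running rats, and control TA, at 14.4 ± 6.27 TPM (SD, n = 4), had a mean within the non-running range. Neither Gadd45a, at -0.34 (-0.72 to 0.04), nor Chrnd, at -0.27 (-0.73 to 0.19), nor Musk, at 0.06 (-0.31 to 0.43), was called in injured muscle of all 24 rats. The count of 11 was 0 without rat 001, 005 or 010, 1 without rat 013 or 014, 4 without rat 002, and 73 with the low-complexity library of rat 006 averaged in. In contralateral TA the interferon list had a median of -0.46 over 27 genes, with Irf7 at -1.12.

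With each rat as its own reference, the running effect on the injured muscle minus that on the contralateral muscle called 1 of 11097 genes (0.00901%). That was Myog, at -1.90 (-2.29 to -1.52, limma adjusted p = 0.0104). In contralateral TA Myog was at 55.1, 87.1, 81.7 and 33.4 TPM in running and 18.7, 19.6, 24.3 and 19.5 TPM in non-running rats, and in injured TA at 279, 538, 444 and 269 TPM and 423, 395, 606 and 518 TPM. The groups did not overlap on the contralateral side and did on the injured side, and control TA was at 5.1 ± 2.30 TPM (SD, n = 4). Myog was picked by a test on these same values, so the separation is no further support. Leaving out 1 rat at a time kept the difference between -2.05 and -1.81, with an adjusted p from 0.00792 to 0.101, and the adjusted p was above 0.05 without rat 002, 005, 010, 014 or 017. The count of called genes was 2 without rat 001 or 013 and 48 with low-complexity libraries averaged in. All 8 rats are from the range 001 to 032, and the running ones are numbered below the non-running ones.

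**Figure D5:**
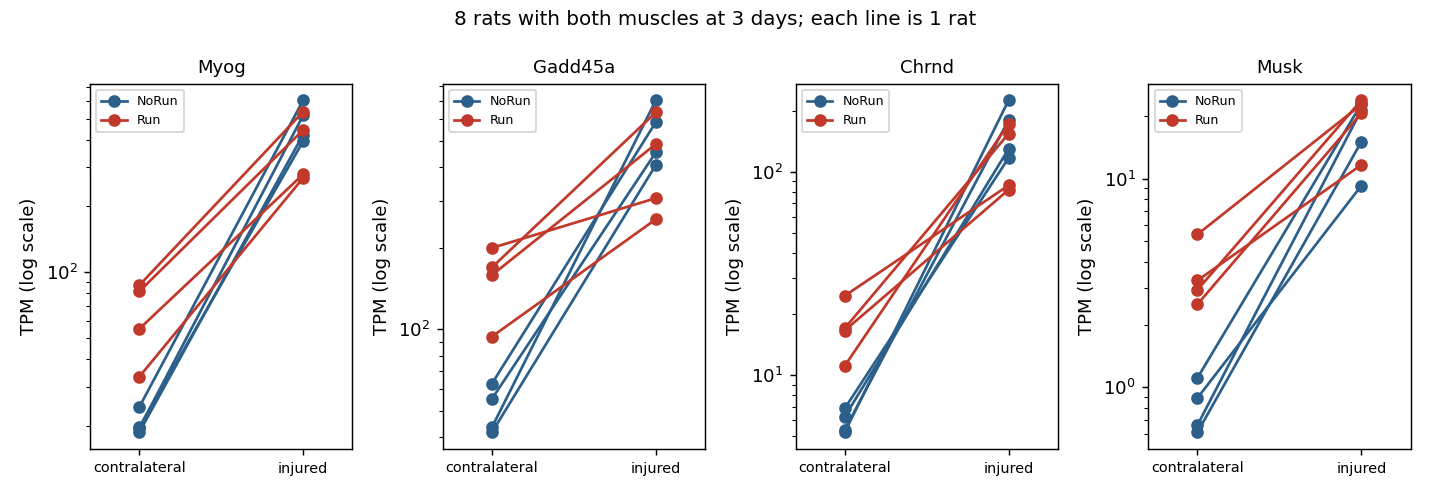
TPM (vertical log axis) of Myog, Gadd45a, Chrnd and Musk in the contralateral and the injured TA of the same 8 rats at 3 days, with a line per rat, red for running and blue for non-running. On the contralateral side the 4 running rats lie above the 4 non-running rats for each gene, and on the injured side they overlap. The genes were picked by their tests on these same muscles, so the separation is no further support.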

How the data were processed

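RNA-Seq of rat TA muscle was taken from 1 deposited table of TPM per gene symbol, which the authors made by pseudo-aligning reads to the rat genome (build 6.0, Genbank annotation) with Kallisto. The submitters' processing notes also name DESeq. TPM keep no depth, so counting error could not be given. The table used here held 138 mapped columns and 16181 complete symbols. It ends at an incomplete entry, which was left out, and symbols that sort after Tubb3 were not analysed here. Of the samples, 9 with labels in conflict were left unassigned. Libraries under 7000 symbols above 1 TPM were dropped, which held for 13 of 138 and 2 of the 28 used here. Libraries of 1 muscle were averaged, and the repeat libraries of rats 002 and 005 correlated at 0.998 and 0.999 over genes.

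Genes were tested where any fitted group had a mean over 1 TPM. The test was limma 3.58.1 in R 4.3.3, on the log2 scale with 1 TPM added and trend in eBayes, with run and repair as terms and Benjamini-Hochberg adjustment over all tested genes. Calls needed an adjusted p below 0.05 and an absolute log2 fold change above 1. Library measures were compared by two-sided permutation with 100000 resamples. Named genes are the 8 of smallest p in each direction, up to 5 called per direction in other comparisons, and list members. The comparison, the lists and the tests were chosen with earlier results of these data known. Rats are separate animals of 1 group. Code was tested on simulated data. Alternatives covered the pseudocount, low-value filter, size factors, libraries kept, covariates, rats 001 to 032 alone, weights per muscle, a fit of all muscles and each muscle left out in turn. Python 3.11.15, pandas 2.3.3, scipy 1.17.1 and matplotlib 3.10.9 made tables and plots.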

Additional observations from a re-analysis of the deposited data

Results flagged for a closer look

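In 249 groups of 6, 7 or 8 muscles, each 1 gene in 1 running and repair group, 5 held 1 muscle whose gap to the nearest other was large for the range of its group, where chance gives about 1 in 20 groups. Among grafted running muscles, rat 025 had Pax7 at 1.66 TPM with the others from 2.77 to 3.57 TPM, and Nr4a3 at 2.67 TPM with the others from 0.48 to 0.98 TPM. Among non-repaired running muscles, rat 098 had Jund at 71.5 TPM with the others from 89.9 to 106 TPM, and rat 002 had Nppa at 6.24 TPM with the others from 0.9 to 2.53 TPM. Rat 002 is the muscle with 15.1% ribosomal RNA. Among grafted non-running muscles, rat 009 had Nppa at 0.67 TPM with the others from 3.70 to 8.93 TPM. The running effect on Myog differed between the injured and the contralateral muscle by -1.90 on the log2 scale, tested in limma on the difference within each of 8 rats.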

How the results depend on the processing

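No paired analysis was possible because running and non-running muscles came from different rats and the replicate numbers of the groups follow accession order, and pairing within a rat was possible only for injured against contralateral muscle in 8 rats. The count of 0 called genes for running against non-running muscle was also 0 with a pseudocount of 0.1 TPM, no filter, a filter at 5 TPM, size factors, all libraries, no covariate, the range of rat numbers as covariate, rats 001 to 032 alone and the adjusted p alone. It was 2 in a fit of all muscles of the series (Mir133a and Nppa), 15 with array weights of limma, which ranged from 0.405 to 2.70 per muscle (Isg15, Mx1, Nppa, S100a8 and 11 microRNA symbols, 6 higher), and, in alternatives chosen after seeing the data, 6 with array weights and the range and 15 with array weights and size factors. With array weights 1048 genes had an adjusted p under 0.05, beside 0 without. The cause was not tested. All 575 values of the 16 genes of smallest p under the alternatives kept their direction and side of the threshold. The largest difference among them was 0.89, short of the 1 needed for a call, and they were picked by p, so this shows little. Leaving out 1 muscle gave 0 to 1 called genes for the pooled effect, the 1 being Mirlet7i without non-running rat 100, 0 to 2 for the non-repaired arm, 0 to 0 for the grafted arm, 0 to 1 for the difference of the arms, 0 to 16 for the contralateral muscle and 0 to 2 for injured minus contralateral. With all libraries kept, the counts were 2 for the non-repaired arm, 8 for 28 days, 73 for the contralateral muscle and 48 for injured minus contralateral, and a pseudocount of 0.1 TPM gave 54 for 28 days. Rats 001 to 032 alone at 3 and 7 days gave 0 for 7 days and for 3 against 7 days. Size factors gave 14 genes at the adjusted p alone, with a median over all genes of 0.0117.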
